A study of Saccharomyces cerevisiae with 16 samples.

Results

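Two-colour arrays compared a pair of budding yeast strains whose FCP1 alleles end at different places, labelled 1:666 and 1:713. The 1:666 strain carries fcp1-trunc-1:666-tag-flag and the 1:713 strain carries fcp1-trunc-1:713-tag-flag. Each was put on 2 arrays, so the comparison rests on 4 of the 16 arrays of the series; the strain labels give the groups. All FCP1 alleles of the series carry a FLAG tag per the labels, which name no treatment. Per the series description, cells were taken in mid-log growth from multi-well plates. Another strain, fcp1-mut-tag-flag, is used beside them; the sources used here do not say what was changed in its FCP1. If the numbers in the labels count residues, the 1:713 product lacks 19 of the 732 residues of Fcp1 and the 1:666 product lacks 66, so that the strains differ by a stretch of 47 residues. The labels do not say how many clones stand behind a strain, or whether its arrays, lettered a and b, hold RNA of different cultures, so every p-value reflects no more than array-to-array spread.

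Fcp1 is the essential phosphatase that takes phosphates off the C-terminal domain of the largest subunit of RNA polymerase II, which lets the enzyme be used again after it has transcribed a gene. Its catalytic domain lies ahead of a BRCT domain, and the C-terminal end is known to bind the general transcription factor TFIIF. In RNA of a whole culture, less of a transcript per cell and fewer cells that make it cannot be told apart. All values below are read against the typical gene of an array.

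Each array pairs RNA of a strain with RNA of the same reference pool, of unstated genotype. The strain was labelled with Cy3 on the arrays lettered a and with Cy5 on those lettered b, so the letter marks the dye orientation. A level is the log2 ratio of strain over pool. A difference is the level in 1:666 minus that in 1:713, taken between arrays of the same letter; the ± values are limma standard errors with n = 2 arrays a strain. Calls needed an adjusted p (Benjamini-Hochberg) below 0.01 together with a change of more than 1.7-fold. The median strain signal lay between 365 and 814 on the 4 arrays, with local background between 44 and 66. In the strain channel 97.5% to 98.5% of all 6388 gene probes exceeded background. The number of arrays limits the precision.

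Most transcripts lay close together in the strains. The median difference over the 6388 probes was 0.0022, with quartiles of -0.09 and 0.085. Limma called 12 probes, 0.188% of those tested, of which 1 was higher in 1:666 (0.0157%) and 11 were lower (0.172%). Each of the 12 stands for a named gene, was above background on all 4 arrays and had no saturated spot. On every one of them both 1:666 arrays lay on one side of both 1:713 arrays, as was the case for 31.6% of all probes. The count moved with the processing. It was 3 without the replicate letter as a block, all of them lower, 2 with external control RNA as the scale and 32 with plain background subtraction (3 higher, 29 lower). Fitted on the 4 arrays alone it was 0, with 858 probes at an unadjusted p under 0.05, and with 1 array left out it was 8 to 17.

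**Figure D1:**
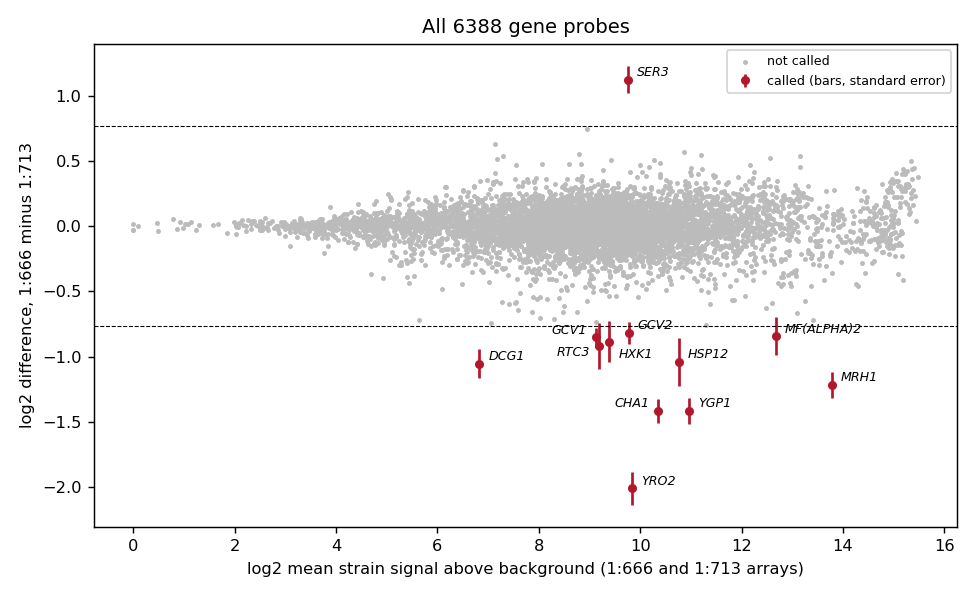
Log2 difference between 1:666 and 1:713 (vertical axis) against the log2 mean strain signal above background (horizontal axis) for the 6388 gene probes. Red points are the 12 called genes with standard errors, the dashed lines mark the fold limit of 1.7, and SER3 is the 1 called gene above the upper line.

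At an adjusted p under 0.01 and any fold there were 187 probes (2.93%), 53 higher (0.83%) and 134 lower (2.1%). The fold limit of 1.7 thus set aside most of these probes. Just outside it lay GPD1, of glycerol synthesis, at 1.69-fold lower, and PRM5, a pheromone-induced membrane protein gene, at 1.67-fold higher. Just inside it lay GCV2 at 1.76-fold lower.

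The altered gene and the genes of the Mediator kinase module were examined first. FCP1 (YMR277W) stood at -0.15 and -0.39 in 1:666 and at -0.12 and -0.50 in 1:713 on arrays a and b. The difference was 0.041 ± 0.078 (limma, adjusted p = 0.779), and the arrays of the strains overlapped; the value was -0.0084 on the external control spots. The position of the probe within FCP1 is unknown here, so its value does not check the labels. SSN3, the Mediator kinase, and its partners SSN8, SRB8 and SSN2 differed by -0.12, 0.010, 0.023 and -0.014, with no call; the sign of SSN8 and SRB8 changed with the scaling. The marker genes MET17 and LYS2, which separate other strains of the series, differed by 0.096 ± 0.12 and 0.049 ± 0.085 with no call. MET17, needed for methionine synthesis, lay between -4.70 and -4.33 on all 4 arrays, far below the pool in both strains.

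Of the 12 called genes, 4 belong to serine and glycine metabolism. Serine is made from a glycolytic intermediate, starting with the phosphoglycerate dehydrogenases Ser3 and Ser33. It is broken down by the deaminase Cha1, and it feeds glycine and one-carbon units through serine hydroxymethyltransferases and the mitochondrial glycine cleavage complex. In 1:666, SER3 rose, whereas CHA1, GCV1 and GCV2 fell.

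SER3 (YER081W) stood at 1.13 and 0.89 in 1:666, and at 0.11 and -0.34 in 1:713. It was the 1 called gene that was higher in 1:666, with no overlap between the strains. The difference was 1.12 ± 0.10, or 2.18-fold (limma, adjusted p = 0.000124). Its close relative SER33 differed by 0.10 ± 0.05 (adjusted p = 0.206), with overlapping arrays. The later steps of the pathway, SER1 (0.19) and SER2 (0.083), had no call either. Of the 4 serine synthesis genes 1, SER3, was called higher. It is also the only probe called higher among all 6388 (0.0157%), so that share is no separate background. The list was chosen with earlier results of these data known, so its counts are no independent test. All 4 were above 0, and their median was 0.15 against 0.0022 over all probes (0.23 under median centring). Without the replicate block SER3 had an adjusted p of 0.122. Its difference could not change there, since each strain had 1 array of each letter.

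CHA1 (YCL064C), whose product deaminates serine and threonine, stood at -1.98 and -1.81 in 1:666. In 1:713 it stood at -0.43 and -0.53. The 1:666 arrays were thus far below the 1:713 arrays, which were themselves below the pool. The difference was -1.42 ± 0.094, or 2.67-fold lower (limma, adjusted p = 1.36e-05). CHA4, which encodes the activator of CHA1, differed by 0.24 ± 0.056 with no call (adjusted p = 0.0212).

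The glycine cleavage complex has 4 proteins. GCV1 (YDR019C), its aminomethyltransferase, stood at -1.33 and -1.17 in 1:666 and at -0.33 and -0.46 in 1:713. GCV2 (YMR189W), the glycine decarboxylase proper, stood at -1.07 and -1.17 against -0.15 and -0.46. Both genes were lower on each 1:666 array than on each 1:713 array. GCV1 fell by 0.85 ± 0.074 (limma, adjusted p = 7.37e-05) and GCV2 fell by 0.82 ± 0.081 (adjusted p = 0.000167). The other members had no call. GCV3, the lipoyl carrier protein, differed by -0.077 ± 0.092, and LPD1, the dehydrogenase that this complex shares with others, by 0.18 ± 0.060. SHM2, the cytosolic serine hydroxymethyltransferase, differed by -0.63 ± 0.068 (adjusted p = 0.000295), short of the fold limit, and its mitochondrial counterpart SHM1 by 0.097 ± 0.13. Without 1:666 a, GCV1 and GCV2 stood at -0.75 and -0.77, and without 1:713 a GCV2 stood at -0.75, each just short of the fold limit. The serine and threonine breakdown, glycine and one-carbon list, likewise chosen with earlier results known, had 18 probes. Of these, 3 were called lower and 0 higher, against 0.172% and 0.0157% of all probes. At an unadjusted p under 0.05 there were 6 lower and 3 higher, where the shares over all probes were 14.7% and 13%. The list's median was -0.095, and it moved to -0.057 under median centring and to -0.15 on the external control spots.

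**Figure D2:**
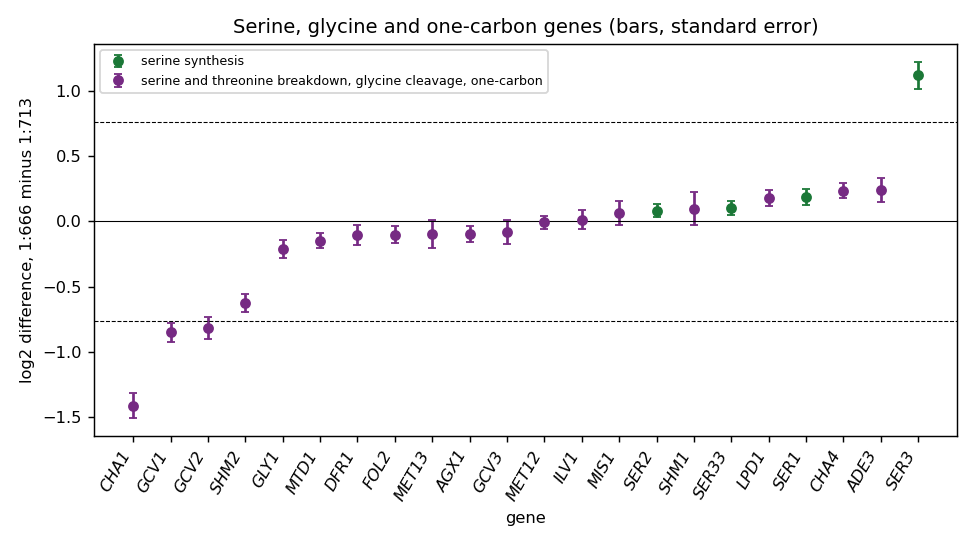
Log2 difference between 1:666 and 1:713 (vertical axis, bars are standard errors) for the 4 serine synthesis genes in green and the 18 genes of serine and threonine breakdown, glycine cleavage and one-carbon metabolism in purple, ordered by value. CHA1, GCV1 and GCV2 lie below the lower fold limit (dashed), SER3 lies above the upper one, and the others lie between the limits.

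The gene with the largest difference encodes a membrane protein. Yro2 and its relatives Mrh1 and Hsp30 are related to the rhodopsin-like proteins of microbes, and YRO2 is a known target of Haa1, the activator that answers to weak acids. YRO2 (YBR054W) stood at -2.52 and -2.12 in 1:666 and at -0.32 and -0.30 in 1:713. The strains were far apart, with a difference of -2.01 ± 0.13, or 4.02-fold lower in 1:666 (limma, adjusted p = 1.35e-05).

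MRH1 (YDR033W) stood at -1.70 and -1.08 in 1:666 and at -0.28 and -0.07 in 1:713. The 1:666 arrays were further apart here than for any other called gene, and both lay below the 1:713 arrays. The difference was -1.22 ± 0.099 (limma, adjusted p = 5.26e-05). HSP30, the other relative, differed by 0.0020 ± 0.20 with no call. Probes of related genes can bind each other's RNA, and how far these do was not tested.

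YGP1 (YNL160W), for a secreted glycoprotein made when nutrients run short, stood at -1.61 and -1.50 in 1:666. In 1:713 it stood at -0.26 and -0.03. The arrays of a strain lay close together, and those of the strains far apart. The difference was -1.41 ± 0.10 (limma, adjusted p = 1.87e-05). TPO3, a polyamine exporter gene that Haa1 also controls, differed by -0.49 ± 0.069 (adjusted p = 0.0016), short of the fold limit. Of the 12 probes of the Haa1 and membrane stress list, 3 were called lower and 0 higher, where 0.172% and 0.0157% of all probes were. The list was chosen with earlier results of these data known, so its counts are no independent test. With p taken unadjusted and under 0.05, 8 lay lower and 0 higher, against 14.7% and 13% of all probes. The median was -0.38, against 0.0022 over all probes, and on the external control spots 1 probe was called in place of 3. HAA1 itself differed by -0.10 ± 0.081 with no call. Without the replicate block YGP1 and MRH1 had adjusted p-values of 0.0154 and 0.0509.

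Genes of the general stress response made up another group. Msn2 and Msn4 are the activators that switch on a broad set of protective genes when growth slows or cells are stressed. Of 45 probes on the Msn2 and Msn4 list, 4 were called lower (YGP1, HSP12, RTC3 and HXK1) and 0 were called higher. The share called lower over all probes was 0.172%. YGP1 was already counted in the Haa1 list, and this list too was chosen with earlier results known. At an unadjusted p under 0.05 there were 20 lower and 1 higher, against 14.7% and 13% of all probes. The median of the list was -0.24, against 0.0022 over all probes, and 36 of 45 probes were below 0. The median was -0.15 without 1:666 b. Calls in the list fell to 2 without 1:666 b, to 1 without 1:666 a, without 1:713 a or under median centring, and to 0 without the replicate block, on the 4 arrays alone or on the external control spots.

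HSP12 (YFL014W), for a small protein that protects membranes, stood at -0.27 and 0.08 in 1:666 and at 0.98 and 0.91 in 1:713. It differs from the other called genes in that 1:713 lay above the pool and 1:666 near it. HSP12 fell by 1.04 ± 0.19 (limma, adjusted p = 0.00617). RTC3 (YHR087W), a stress-responsive gene, stood at -1.18 and -1.01 against -0.09 and -0.27, a difference of -0.91 ± 0.18 (adjusted p = 0.00859). Without 1:666 a, 1:666 b or 1:713 a, HSP12 stood at -1.01, -1.07 and -0.83 (adjusted p 0.0362, 0.0288 and 0.082) and RTC3 at -0.93, -0.90 and -0.70 (adjusted p 0.0402, 0.0415 and 0.11), with no call. Under median centring HSP12 (-0.97) and RTC3 (-0.91) were not called either.

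Several well-known members of the list were not called. CTT1, the cytosolic catalase, differed by -0.21 ± 0.16, DDR2 by -0.40 ± 0.16 and HSP26, a small heat shock protein gene, by -0.28 ± 0.18. For each of the 3 the strains did not overlap, with 1:666 lower. Strains did not overlap, in either direction, for 31.6% of all probes. The adjusted p-values of the 3 were 0.405, 0.122 and 0.333. GPD1, the glycerol phosphate dehydrogenase gene of the osmotic response, stood at -0.75 and -0.93 in 1:666 and at 0.09 and -0.25 in 1:713. Its difference of -0.76 ± 0.073 had an adjusted p of 0.000138 and missed the fold limit by little. GPP2, the next enzyme of glycerol synthesis, differed by -0.46 ± 0.074 (adjusted p = 0.00356). It was lower in 1:666 on both letters, at -0.52 on arrays a and -0.39 on arrays b, while the levels taken without regard to the letter overlapped.

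**Figure D3:**
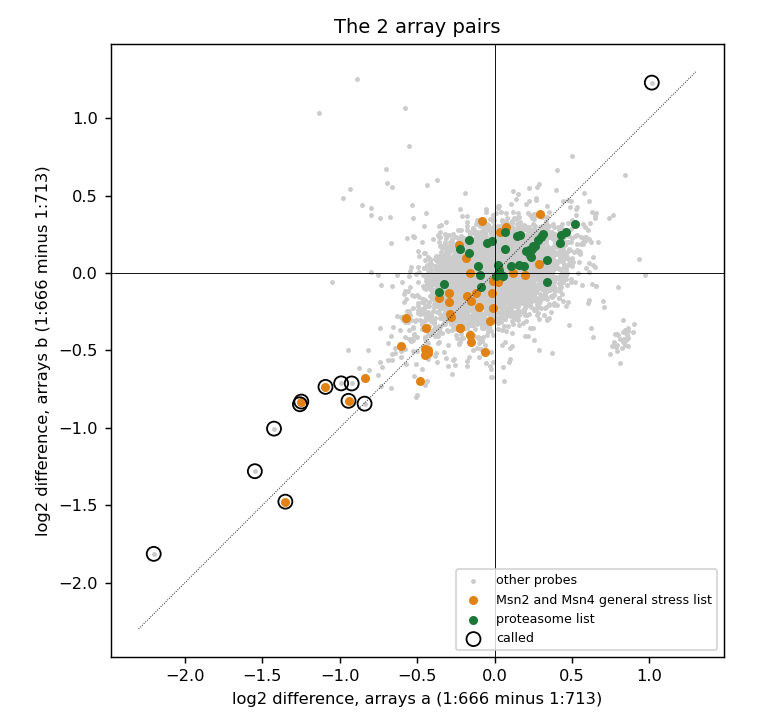
Log2 difference between 1:666 and 1:713 on the arrays lettered a (horizontal axis) and on those lettered b (vertical axis), 1 point per probe, with the Msn2 and Msn4 general stress list in orange, the proteasome list in green and the 12 called genes circled. The called genes lie near the dotted line of equal differences, 11 at the lower left and SER3 at the upper right, while over all probes the sign was the same in both pairs for 60.4%.

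Carbon metabolism held 1 call, already counted in the Msn2 and Msn4 list. HXK1 (YFR053C), a hexokinase isoenzyme that glucose keeps low, stood at -1.38 and -1.08 in 1:666 and at -0.43 and -0.26 in 1:713, a difference of -0.88 ± 0.16 (limma, adjusted p = 0.00599). Leaving out any 1 of the 4 arrays ended the call. Without 1:666 a, 1:666 b, 1:713 a or 1:713 b it stood at -0.92, -0.85, -0.78 and -0.99, with adjusted p-values of 0.0281, 0.0344, 0.0718 and 0.0137. HXT1, the low-affinity glucose transporter that high glucose induces, stood at -0.59 and -0.41 against 0.14 and 0.20. Its difference of -0.67 ± 0.056 (adjusted p = 6.73e-05) was short of the fold limit. The 2 genes answer to glucose in opposite ways, and both were lower in 1:666. Of 28 probes for hexose transport and glucose-repressed genes, 1 was called lower, against 0.172% of all probes. At an unadjusted p under 0.05, 9 were lower and 1 higher, against 14.7% and 13% of all probes. The glucose-repressed invertase gene SUC2 differed by -0.23 ± 0.069 and MDH2, of gluconeogenesis, by -0.23 ± 0.055, with no call. Among 53 probes for the TCA cycle and respiratory chain none was called by limma, while 15 lay lower and 4 higher by unadjusted p, against the same shares. Those nearest to a call were NDE1, an NADH dehydrogenase gene, at -0.60 ± 0.057, and CYC1, cytochrome c, at -0.41 ± 0.054.

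Glycogen and trehalose genes had values on both sides of 0. PGM1, a phosphoglucomutase gene, differed by 0.35 ± 0.058 and the debranching enzyme gene GDB1 by 0.34 ± 0.071. Glycogen synthase GSY2 differed by -0.47 ± 0.11 and glycogen phosphorylase GPH1 by -0.59 ± 0.15. None of the 18 probes of that list was called by limma, while 4 lay lower and 2 higher by unadjusted p, near the shares of 14.7% and 13% over all probes.

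DCG1 (YIR030C) lies among the allantoin degradation genes and is itself of unassigned role. It stood at -1.03 and -1.13 in 1:666 and at 0.23 and -0.28 in 1:713, and fell by 1.05 ± 0.11 (limma, adjusted p = 0.000221). Its mean strain signal in 1:666 was only 59.9, and with plain background subtraction the difference was -1.65. The genes on either side of it were not called, with DAL2 at -0.044 ± 0.096 and DAL7 at -0.0076 ± 0.070. Of 29 probes for amino acid permeases and nitrogen catabolite genes, limma called none, while 12 lay lower and 1 higher at an unadjusted p under 0.05, against 14.7% and 13% of all probes. The nearest to a call was MEP3, an ammonium permease gene, at -0.44 ± 0.051 (adjusted p = 0.000402), followed in size by MEP1 at -0.25 ± 0.054. Over all the called genes, the nearest genes with a probe on either side came to 24. Genes without a probe can lie between these neighbours and the called gene. Limma called 0 of them, against 0.188% of all probes, a share at which 24 probes would rarely hold a call. An unadjusted p under 0.05 was met by 6 of them, against 27.7% of all probes. The differences of the 24 neighbours ranged from -0.40 to 0.14. Without the replicate block the adjusted p of DCG1 was 0.0458.

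MF(ALPHA)2 (YGL089C), the minor gene for the mating pheromone of alpha cells, stood at -1.22 and -0.97 in 1:666. In 1:713 it stood at -0.38 and -0.12. The strains did not overlap, and the difference was -0.84 ± 0.14 (limma, adjusted p = 0.00508). Without 1:666 a, 1:666 b, 1:713 a or 1:713 b it stood at -0.83, -0.85, -0.86 and -0.83, with adjusted p-values of 0.0298, 0.0262, 0.0446 and 0.022, and was not called. Under median centring it was not called either, at -0.75.

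The other genes that mark alpha cells lay lower in 1:666 as well, with no call. STE3, the receptor for the pheromone of a cells, differed by -0.46 ± 0.073 (adjusted p = 0.00306), MF(ALPHA)1, the major pheromone gene, by -0.36 ± 0.12 (adjusted p = 0.0777) and SAG1, alpha-agglutinin, by -0.20 ± 0.12 (adjusted p = 0.313). All 4 alpha markers were above background on all 4 arrays, and their summed strain signal was 32298 in 1:666 and 39600 in 1:713. Of the 7 markers of a cells, 4 were above and 3 below 0 and none was called, with a median of 0.0049 that turned negative under 9 of the 13 other settings. Their summed signal was 660.1 in 1:666 and 597.2 in 1:713. The labels give no mating type, and none of these markers was at 0. The mean strain signal of single alpha markers lay between 3288 and 23489 in the strains. For single markers of a cells it lay between 33.5 and 169, against a median of 536 over all probes in 1:713. At such low signal the signs and the median of the a cell markers say little. Of the 7 markers of haploid cells of either type, 6 lay below 0, the furthest being FAR1, an inhibitor of the cell cycle in the pheromone response, at -0.44 ± 0.074. The summed signal of these 7 was 9283 in 1:666 and 9211 in 1:713, while most of their differences were below 0. The sums given here are of strain signal, whereas the differences use the ratio over the pool, so sums and signs need not match. PRM5 differed by 0.74 ± 0.086 in the opposite direction (adjusted p = 0.000391). The part of mating-type differences in these values was not tested.

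**Figure D4:**
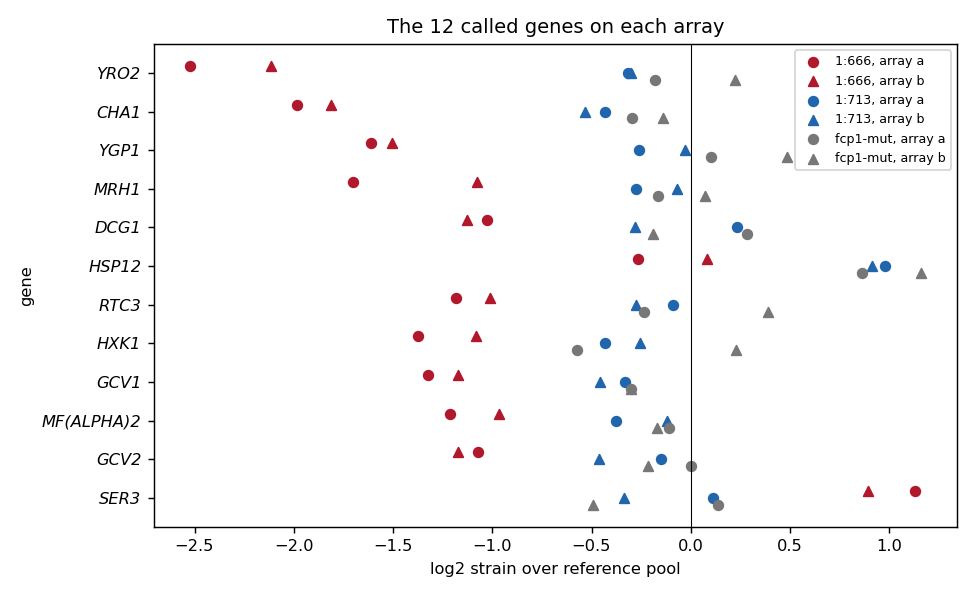
Log2 level over the reference pool (horizontal axis) of the 12 called genes on each array of 1:666 (red), 1:713 (blue) and fcp1-mut (grey), with circles for arrays a and triangles for arrays b. In each gene the red points stand apart from the blue ones, to the left in 11 genes and to the right in SER3.

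The cell wall list held 1 call, YGP1, already given. At an unadjusted p under 0.05, 12 of its 40 probes were lower and 3 higher. The gene groups below had no call by limma in the fit described above. They are described by their counts at an unadjusted p under 0.05, where the share over all probes was 13% higher and 14.7% lower. In the list for NAD, thiamine and vitamin B6 synthesis, 16 of 29 probes were lower and 2 higher, and the median was -0.23. Without 1:713 a the median was -0.15 with 1 probe called lower, and with plain background subtraction 2 were called lower. Its members included BNA4 (-0.61 ± 0.056) and BNA5 (-0.66 ± 0.066), of NAD synthesis from tryptophan, and THI20 (-0.37 ± 0.053), of thiamine synthesis. PHO3, a thiamine-repressed phosphatase gene with 2 probes, differed by -0.54 and -0.57. BNA4 and BNA5 had adjusted p-values of 0.000108 and 0.000167 but folds of 1.53 and 1.58.

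In the list for methionine synthesis and sulfate assimilation, 15 of 32 probes were higher and 3 lower, and the median was 0.12. It moved to 0.22 with plain background subtraction and to 0.051 on the external control spots. The nearest to the fold limit were MMP1, an S-methylmethionine permease gene (0.48 ± 0.055), MET14, of sulfate assimilation (0.47 ± 0.074), and the transcription factor gene MET28 (0.47 ± 0.076). MET28 stood at 0.39 and 0.29 in 1:666 and at -0.23 and -0.04 in 1:713. Of the 9 lysine synthesis probes, 4 were higher and 0 lower. LYS1, the last step of that pathway, stood at 0.38 and 0.33 against -0.20 and -0.19, a difference of 0.55 ± 0.069 (limma, adjusted p = 0.000744).

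The proteasome list had 19 of 37 probes higher and 2 lower, with a median of 0.14 that stayed between 0.094 and 0.20 under the 13 other settings. The differences were small for each gene. RPT4, an ATPase of the regulatory particle, differed by 0.42 ± 0.092, PRE1, of the core particle, by 0.36 ± 0.075 and RPN6, of the lid, by 0.34 ± 0.074, with adjusted p-values of 0.0164, 0.0124 and 0.0164. The phospholipid synthesis list had 9 of 19 probes lower and 0 higher, with a median of -0.11 that moved to -0.18 without 1:713 b and to -0.20 on the external control spots. OPI3, a methyltransferase of phosphatidylcholine synthesis, stood at -0.75 and -1.01 in 1:666 and at -0.30 and -0.28 in 1:713. Its difference of -0.59 ± 0.076 was the furthest in that list, and INO1, of inositol synthesis, differed by -0.23 ± 0.054.

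The study's title concerns oxidative stress, and the genes known for that response were counted in the same way. Of 40 probes, limma called 0, while 6 lay lower and 5 higher by unadjusted p. The median was -0.011, which turned positive under 2 of the 13 other settings. YHB1, the nitric oxide dioxygenase flavohemoglobin, stood at -1.23 and -0.99 in 1:666 and at -0.57 and -0.64 in 1:713, a difference of -0.50 ± 0.089 (adjusted p = 0.00592). MXR1, a methionine sulfoxide reductase, differed by 0.41 ± 0.079 (adjusted p = 0.00809), and the peroxiredoxin gene TSA2 by -0.40 ± 0.092 (adjusted p = 0.0185).

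The transcription machinery itself was read against the same shares over all probes. Of 12 probes for RNA polymerase II subunits, limma called 0, while 3 lay higher and 1 lower at that unadjusted limit. RPO21, the largest subunit and the substrate of Fcp1, stood at 0.96 and 0.41 in 1:666 and at -0.01 and 0.42 in 1:713. Its arrays overlapped, with differences of 0.97 on arrays a and -0.010 on arrays b, and the fitted value of 0.48 ± 0.19 had an adjusted p of 0.131. Among 15 probes for other kinases and phosphatases of the C-terminal domain, limma called 0, while 2 lay higher and 3 lower. SSU72, another phosphatase of this domain, differed by -0.23 ± 0.068 (adjusted p = 0.0471). Core Mediator had 4 of 21 higher and 3 lower. Ribosomal protein genes had 5 of 121 higher and 17 lower, and the 10 histone probes had none in either direction.

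The strain fcp1-mut was set beside both. It shares no array with 1:666 or 1:713, but each contrast with it shares arrays with the main comparison, so the values are only given side by side. Limma called 30 probes between 1:666 and fcp1-mut (0.47%), 6 higher in 1:666 (0.0939%) and 24 lower (0.376%). Between fcp1-mut and 1:713 it called 0 (0%), with 443 probes at an unadjusted p under 0.05 (6.93%). YRO2 differed by -2.34 ± 0.13 between 1:666 and fcp1-mut, CHA1 by -1.68 ± 0.094, YGP1 by -1.85 ± 0.10 and SER3 by 1.19 ± 0.10. Between fcp1-mut and 1:713 the same genes differed by 0.33, 0.27, 0.44 and -0.064, with adjusted p-values of 0.674, 0.674, 0.4 and 0.911. GPD1 (-0.96 ± 0.073), PRM5 (0.91 ± 0.086), SHM2 (-0.83 ± 0.068) and BNA5 (-0.80 ± 0.066), which had missed the fold limit against 1:713, were called against fcp1-mut. Scaled on the external control spots, the median of all probes moved to 0.19 in 1:666 against fcp1-mut and to -0.26 in fcp1-mut against 1:713.

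The levels of the 12 genes were read in all 8 strains. In 1:609 and 1:594, which carry shorter FCP1 alleles and also differ from 1:666 and 1:713 in LYS2 signal (3.40 and 2.73 over the pool), the level of YRO2 was -3.24 and -2.81. SER3 stood at 2.51 and 2.04 there. Of the 11 lower genes, 9 had a mean level in 1:609 below that in 1:666, and 8 did in 1:594. HSP12 was an exception, at 1.10 in 1:609 and 1.04 in 1:594 and thus near its level of 0.95 in 1:713. HXK1 was at -0.96 and -0.33, above its 1:666 level of -1.23.

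In 1:666 cdk8-del, which lacks the Mediator kinase gene CDK8 (SSN3), the genes stood on both sides of the pool. YRO2 stood at 1.52, YGP1 at 2.25, HSP12 at 3.86, RTC3 at 2.83 and HXK1 at 2.72, all above the pool. CHA1 at -1.96, GCV1 at -0.95, GCV2 at -0.96, DCG1 at -1.10 and SER3 at 0.70 stayed on the side of the pool on which they stood in 1:666. MRH1 at -0.26 and MF(ALPHA)2 at -1.66 also stayed below the pool, against -1.39 and -1.09 in 1:666. Of the 11 lower genes, 6 were below the pool in 1:666 cdk8-del. MET17 also differs in that strain, at -0.051 against -4.51 in 1:666. These levels are means of 2 arrays against the pool, and no test of a difference was made here.

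**Figure D5:**
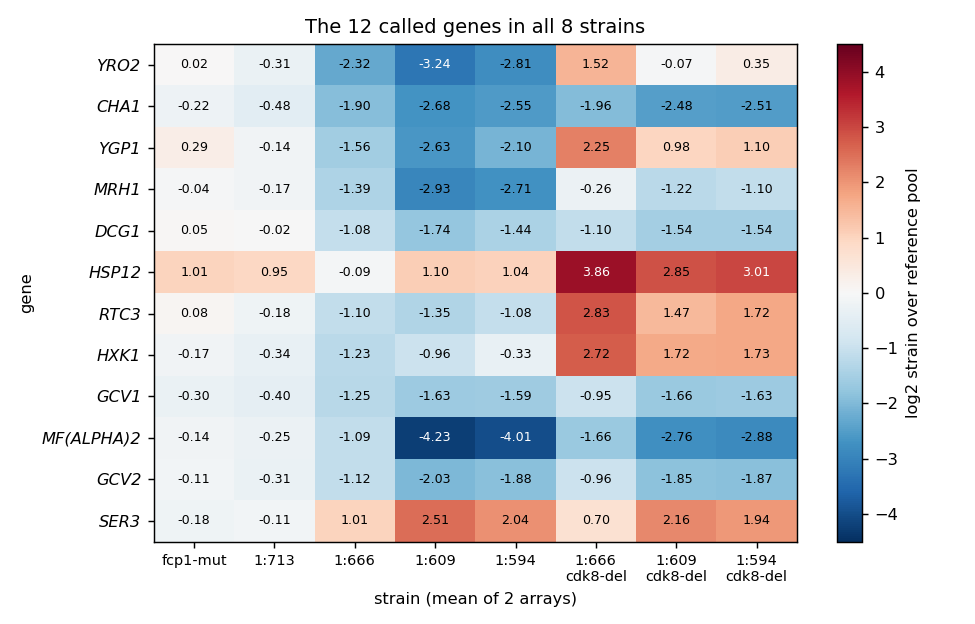
Mean log2 level over the reference pool, printed and coloured (blue below, red above), of the 12 called genes in rows and the 8 strains in columns, n = 2 arrays each. The 1:713 column lies near the fcp1-mut column, and the stress genes YGP1, RTC3 and HXK1 are blue in 1:666 and red in 1:666 cdk8-del while CHA1, GCV1, GCV2 and DCG1 are blue in both.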

How the data were processed

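RNA of each strain was hybridised with a reference pool on 2 spotted arrays. Per the file headers, the scanner files give the mean intensity of each spot and the median intensity around it in both channels, deposited unnormalised. The authors also deposited a matrix of log2 ratios, scaled to total mRNA per the series description; further steps are not given in the sources used here. It correlated with the values here at r of 0.621 to 0.977 and served as an alternative. Of 15552 spots per array, 12776 belong to 6388 gene probes with 2 spots each, of which 5326 carry 1 symbol; 1062 have no name here.

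Background was corrected with normexp (offset 50), log2 ratios were scaled by lowess (span 0.4, 3 iterations) over the gene spots, expressed as strain over pool, and averaged per probe. limma 3.58.1 in R 4.3.3 fitted a mean per strain and the replicate letter to 16 arrays (7 residual and 4.89 prior degrees of freedom), with two-sided tests. The limits of 0.01 and 1.7 are those of the series description, which does not say whether its p is adjusted. A probe was above background at 3 background standard deviations. The pipeline was tested on simulated data.

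Arrays of the same letter deviated together: over 28 pairs of strains r lay between 0.599 and 0.914 and was 0.599 for 1:666 with 1:713, so the letter was kept as a block.

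The comparison and the 36 gene lists (928 entries, 30 of them without a probe) were chosen with earlier results of these data known. A list's count beside the share over all probes is therefore no independent test. Named genes are the called ones, up to 4 members of each list with the smallest p, and FCP1, SSN3, SSN8, SRB8, SSN2, MET17 and LYS2; others were chosen after their values were seen. The alternatives were other background corrections, scalings, fits, thresholds and arrays left out. Plots used Python 3.11.15, pandas 2.3.3 and matplotlib 3.10.9.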

Additional observations from a re-analysis of the deposited data

How the results depend on the processing

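The 12 calls between 1:666 and 1:713 rest on the shared estimate of the spread and on the block for the replicate letter. Without the block there were 3, on the 4 arrays alone 0 (858 probes at an unadjusted p under 0.05), with plain background subtraction 32 (3 higher, 29 lower) and on the external control spots 2. Leaving out 1 array gave 8 to 17. The other counts were 8 (median centring) to 15 (print-tip lowess), and 14 with the deposited log2 ratios, which kept all 12. Between 1:666 and fcp1-mut, 30 calls became 12 without the block, 56 with plain subtraction, 4 on the external control spots and 21 to 31 with 1 array left out. Between fcp1-mut and 1:713 the count was 0, and 0 to 1 with 1 array left out. Without the block or on the 4 arrays alone no difference could change, since each strain had 1 array of each letter. Of 1859 values, for 143 genes in 13 settings, 52 lost a call, 8 gained one and 16 changed sign, none of them in a called gene. Of these 16, MFA2 (-0.021), SSN8 (-0.053), LYS2 (-0.040) and HTZ1 (0.0011) did so under median centring. On the external control spots it was SRB8 (-0.064), SSN8 (-0.029), FCP1 (-0.0084), LYS2 (-0.021) and HHT2 (-0.00249). With 1 array left out SRB8 ranged from -0.0073 to 0.052, SSN8 from -0.040 to 0.061, SSN2 from -0.071 to 0.043, HTZ1 from -0.20 to 0.028, FCP1 from -0.012 to 0.094 and MET17 from -0.079 to 0.27. YRO2 and CHA1 lost their calls only on the 4 arrays alone (adjusted p 0.0137 and 0.0222). A scan batch as a block was not run, since the file headers give none. Where 1 array was left out, the lone array was assumed to vary like those of the other strains.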

Other observations

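Another set of probes had opposite signs on the 2 pairs of arrays. There were 30 probes with a difference between 1:666 and 1:713 above 0.7 on arrays a and below -0.2 on arrays b, from 0.71 to 0.90 and from -0.58 to -0.22. They were picked after their values were seen. Of these probes 27 have no name here, and the named ones are YDR170W-A, YDR210C-C and YPR158W-A. Their fitted differences lay between 0.11 and 0.28, and 0 of the 30 were called. The reverse pattern, below -0.7 and above 0.2, was met by 8 probes.

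The 100 probes with the brightest strain signal had a median difference of 0.13, against 0.0012 for the others, and 68 of them were above 0. Of these 100, 23 had a saturated spot on the 4 arrays, and 0 were called.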
